A study of Homo sapiens with 3 samples.

Results

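The genes described here encode the hemidesmosome and 2 chains of laminin-332, the anchoring machinery that fixes basal epithelial cells to the basement membrane. They were chosen by gene symbol, as ITGA6, ITGB4, LAMA3, LAMB3, COL17A1, PLEC, DST and CD151, which makes 8 of the 46427 genes in the deposited table. Their levels were read in MG-OKS cells, an osteosarcoma line that the series title presents as artificially made to resemble cancer stem cells and that the labels call mesenchymal. One group carried an siRNA directed at SPRR1A (labelled as a knock down of that gene), another a scrambled siRNA, and the last was untransfected MG-OKS labelled WT. All groups shared the MG-OKS background and growth in DMEM with 10% fetal bovine serum. Both siRNAs were delivered with a lipid reagent, and the medium of those wells was changed after 24 h. The time of RNA isolation was not given in the sources used here. Each group is 1 stranded mRNA library of 1 line, so no difference below has a replicate check and no test between conditions was possible. The intervals given are 95% counting intervals, which cover counting error only.

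Hemidesmosomes link the keratin filaments of a basal cell to the matrix beneath it. Integrin α6β4, encoded by ITGA6 and ITGB4, is the transmembrane receptor and binds laminin-332, a trimer with the LAMA3 and LAMB3 chains that basal keratinocytes secrete. Inside the cell the plakins plectin (PLEC) and BPAG1e (an epithelial product of DST) tie the integrin and the transmembrane collagen XVII (COL17A1) to keratin, and the tetraspanin CD151 associates with the laminin-binding integrins. The α6 chain also pairs with β1 (ITGB1) in a receptor that belongs to no hemidesmosome, and PLEC, DST and CD151 are used widely outside epithelia.

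Counts summed to 34453554 with the SPRR1A siRNA, 36533542 with the scrambled siRNA and 40050593 without transfection. The targeted gene, SPRR1A, had 0 counts in all 3 libraries, and 3 counts, taken as the limit of a count of 0, would be 0.0880 CPM with the SPRR1A siRNA, 0.0826 with the scrambled siRNA and 0.0736 without transfection. No value of SPRR1A therefore checks the labels. The CPM given are counts scaled to a common library size with TMM factors. A gene was kept when it reached 1 CPM by unscaled library totals in at least 1 library. This held for 14233 genes and for 8 of the 8 members. A kept gene was called higher or lower when it differed by 1 or more on the log2 scale with a counting interval that did not reach 1 as a ratio. The rule compares libraries and not conditions. These are bulk libraries, in which fewer cells of a type and less RNA per cell cannot be told apart.

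Sequences at the laminin genes are shown because both laminin-332 chains among the members hold the same 7-base motif near an annotated start. They were chosen with the lower levels of these chains in the SPRR1A siRNA library already known. A link between motif and level was not tested. RefSeq promoter windows (GRCh38.p14, from 250 bases before to 50 after a start) were given for 5 members, namely ITGA6, LAMA3, LAMB3, COL17A1 and DST. The windows were searched for TGANTCA, the motif bound by AP-1, which reads the same on both strands. A match was found for LAMA3, LAMB3 and DST, which is 3 of the 5, while 7.33% of kept genes with a window and 7.71% of all 35116 windows held one. LAMB3 and DST had several windows each and so more chances of a match. The LAMA3 window (chr18:23872770-23873069, plus strand) surrounds a start 25 bases from that of the short transcript LAMA3-207 and holds motifs 125 and 69 bases before that start. No window was given for the far upstream start of the long LAMA3 transcripts, which was not searched. The mean transcript lengths given below for LAMA3 lay nearer those long forms. The LAMB3 window (chr1:209651325-209651624, minus strand) belongs to the most downstream of its 3 listed starts, with a motif 67 bases before it. In DST the motif lay 26 bases past the most upstream start. Capitals mark the motif in the sequences below, and a match is a description of the letters, not evidence of binding.
LAMA3: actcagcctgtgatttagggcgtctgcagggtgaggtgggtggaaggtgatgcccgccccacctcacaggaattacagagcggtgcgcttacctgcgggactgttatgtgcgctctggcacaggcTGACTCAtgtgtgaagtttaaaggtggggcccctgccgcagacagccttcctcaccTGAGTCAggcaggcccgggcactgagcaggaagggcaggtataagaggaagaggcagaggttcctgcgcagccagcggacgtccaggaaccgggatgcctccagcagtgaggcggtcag
LAMB3: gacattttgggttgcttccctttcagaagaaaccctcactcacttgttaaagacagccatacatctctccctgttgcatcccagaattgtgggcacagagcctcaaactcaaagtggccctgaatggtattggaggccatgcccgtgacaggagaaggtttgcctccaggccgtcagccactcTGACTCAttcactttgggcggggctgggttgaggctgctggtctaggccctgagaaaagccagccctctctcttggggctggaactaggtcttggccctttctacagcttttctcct

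A second short sequence was looked up because an earlier look at these data met it in the 3' UTRs of strongly lower genes. This 7-base sequence, GTCACCC, was present in the longest annotated 3' UTR (GENCODE 29) of 12.3% of kept genes and in 1 of the 8 members, COL17A1. It lies at base 790 of the 949-base COL17A1 3' UTR on chromosome 10, in capitals here with its neighbouring bases.
COL17A1 3' UTR site: agctcaagacGTCACCCtccattctgc

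Levels per length spanned a wide range. In deposited TPM (transcript shares corrected for length, the only values used here to set genes against each other), PLEC was the highest member in each library, at 526 with the SPRR1A siRNA, 451 with the scrambled siRNA and 569 without transfection. ITGB4 was the lowest, at 1.22, 2.78 and 5.09 TPM in the same order. ITGA6, CD151 and PLEC were abundant transcripts, each at the 92.7th percentile of kept genes or above in every library, ITGA6 at 270, 299 and 451 TPM and CD151 at 154, 365 and 433 TPM. DST and LAMB3 came next, DST with 25.9, 27.1 and 22.6 TPM and LAMB3 with 13.4, 25.9 and 30.7 TPM. COL17A1 had 5.96, 13.1 and 14.4 TPM and LAMA3 had 3.67, 8.84 and 7.42 TPM. The order of these neighbours was not the same in all libraries, since CD151 lay below ITGA6 in the SPRR1A siRNA and untransfected libraries and above it in the scrambled library, and DST lay above LAMB3 except in the untransfected library. The members that belong to hemidesmosomes in particular, ITGB4 and COL17A1, thus sat in the lower part of the range, at the 10.8th and 31.1st percentile of kept genes in the SPRR1A siRNA library, the 19.2nd and 46.8th in the scrambled and the 26.1st and 47.2nd in the untransfected library.

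**Figure D1:**
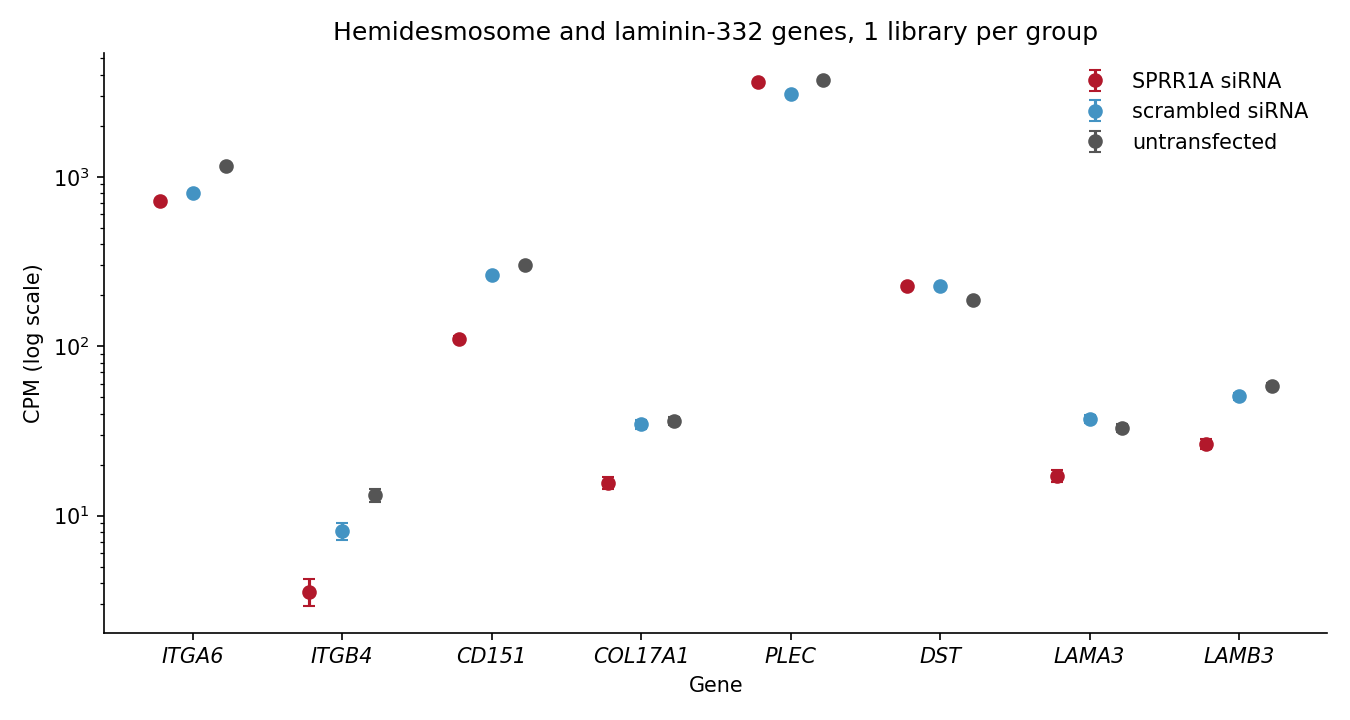
CPM of the 8 members on a log axis, with exact Poisson 95% intervals, in the SPRR1A siRNA (red), scrambled siRNA (blue) and untransfected (grey) libraries, 1 library each. ITGB4, CD151, COL17A1, LAMA3, LAMB3 and, by less, ITGA6 are lowest in the SPRR1A siRNA library, while for PLEC and for DST the 3 libraries lie close together.

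Set against the scrambled library, the SPRR1A siRNA library had lower levels of the receptor chain ITGB4, the tetraspanin CD151, collagen XVII and the laminin α3 chain, each by 2.17-fold to 2.39-fold. LAMB3 was 1.90-fold lower, just short of the rule. ITGA6, PLEC and DST lay within 1.17-fold of the scrambled library. In all, 4 of 8 members were called lower and 0 higher, while the same rule called 7.26% of kept genes lower and 3.70% higher. The median log2 ratio of the members was -1.02, and that of all kept genes was -0.000981.

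Against the untransfected library 4 of 8 members were again called lower, where 8.35% of kept genes were, with a median log2 ratio of -1.03. ITGB4, CD151 and COL17A1 were called lower against both controls, LAMA3 only against the scrambled and LAMB3 only against the untransfected library. The difference between these comparisons was not tested, and both use the same SPRR1A siRNA library. Of all kept genes, 4.64% were lower than in both controls. Between the controls, 0 members were called in the scrambled against the untransfected library, and the members' median log2 ratio was -0.19. Of the 14233 kept genes 3.44% were called lower there and 217 genes higher, so 0 of 8 members says little about them.

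**Figure D2:**
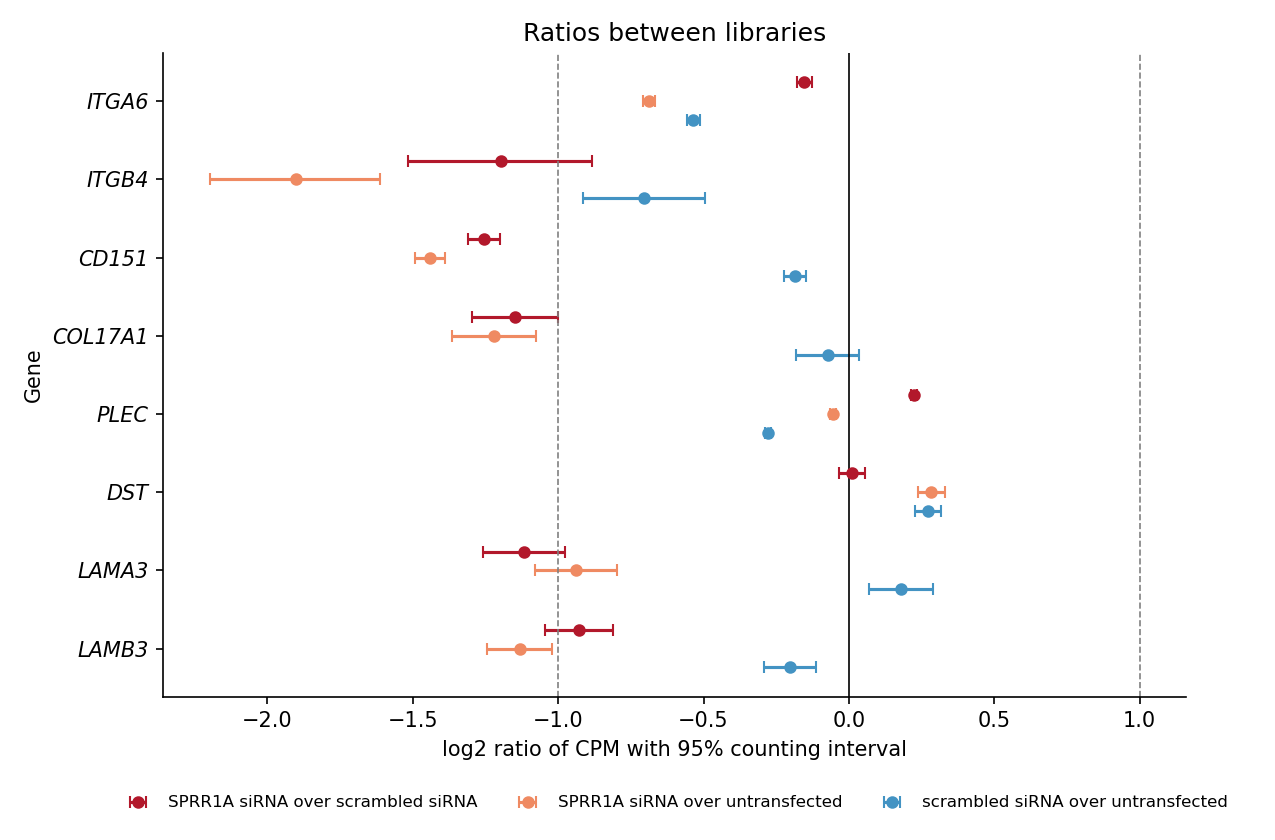
Log2 ratio of CPM for each member in the SPRR1A siRNA over the scrambled library (red), the SPRR1A siRNA over the untransfected library (orange) and the scrambled over the untransfected library (blue). Bars are 95% counting intervals and dashed lines mark a 2-fold difference. The ratios of ITGB4, CD151 and COL17A1 lie beyond -1 against both controls, and those of PLEC and DST lie between -0.28 and 0.28.

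The integrin receptor was uneven. ITGB4 (NCBI Gene 3691, chr17:75721459-75757818), the β4 chain, which pairs with α6 alone, had 120 counts or 3.52 CPM in the SPRR1A siRNA library, against 293 counts or 8.07 CPM in the scrambled and 536 counts or 13.2 CPM in the untransfected library. The counting intervals of these levels, 2.92 to 4.21, 7.17 to 9.05 and 12.1 to 14.3 CPM in that order, did not overlap. ITGB4 was therefore 2.29-fold lower with the SPRR1A siRNA than with the scrambled siRNA (95% interval 1.85 to 2.86) and 3.73-fold lower than without transfection (3.06 to 4.59). On the log2(TPM + 1) scale, which understates low genes, ITGB4 had -0.77 to the scrambled library and missed the rule. The scrambled library was itself 1.63-fold below the untransfected library (1.41 to 1.89), which did not meet the rule. The 3' end of ITGB4 overlaps GALK1 on the opposite strand, and whether counting used the strand was not given in the sources used here. GALK1 had 543 counts with the SPRR1A siRNA, 468 with the scrambled siRNA and 773 without transfection.

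ITGA6 (Gene 3655, chr2:172427336-172506459), the α6 chain, had 24603 counts or 722 CPM in the SPRR1A siRNA library, against 29145 counts or 803 CPM in the scrambled and 47391 counts or 1163 CPM in the untransfected library. Both transfected libraries lay below the untransfected one, the SPRR1A siRNA library by 1.61-fold (1.59 to 1.64) and the scrambled by 1.45-fold (1.43 to 1.47). Between the siRNAs ITGA6 differed by 1.11-fold (1.09 to 1.13, lower with the SPRR1A siRNA). Per length, α6 transcripts outnumbered β4 transcripts 222-fold in the SPRR1A siRNA, 108-fold in the scrambled and 88.5-fold in the untransfected library. Transcripts of ITGB1, the other partner of α6 and a partner of many α chains, were 216-fold, 77.8-fold and 48.0-fold as abundant as those of ITGB4 in the same libraries.

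CD151 (Gene 977, chr11:832952-838831) had 3767 counts or 111 CPM in the SPRR1A siRNA library, against 9575 counts or 264 CPM in the scrambled and 12228 counts or 300.1 CPM in the untransfected library. It was the abundant member that differed most, 2.39-fold lower than with the scrambled siRNA (2.30 to 2.48) and 2.71-fold lower than without transfection (2.62 to 2.82), while the controls differed by 1.14-fold (1.11 to 1.17). Its 3' end overlaps POLR2L, a small RNA polymerase subunit gene on the opposite strand, which had 3159 counts with the SPRR1A siRNA, 2836 with the scrambled siRNA and 3169 without transfection. Of the 8 kept genes in a list of other tetraspanins, 1 was called lower than in the scrambled library and 0 higher, with a median log2 ratio of -0.22. That gene was TSPAN14, a partner of the sheddase ADAM10, with 427 counts with the SPRR1A siRNA, 1656 with the scrambled siRNA and 2065 without transfection, a 3.64-fold lower level than with the scrambled siRNA (3.27 to 4.06).

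COL17A1 (Gene 1308, chr10:104031286-104085880), collagen XVII or BP180, had 531 counts or 15.6 CPM in the SPRR1A siRNA library, against 1253 counts or 34.5 CPM in the scrambled and 1480 counts or 36.3 CPM in the untransfected library. The controls lay close together (1.05-fold, interval 0.975 to 1.14), and the SPRR1A siRNA library lay apart from both. It was 2.21-fold below the scrambled library (2.0 to 2.46) and 2.33-fold below the untransfected library (2.11 to 2.58). The GTCACCC site printed above lies in this gene, and whether it bears on the level of COL17A1 was not tested.

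Neither plakin met the rule in any comparison. PLEC (Gene 5339, chr8:143915153-143976745) had 122638 counts or 3599 CPM in the SPRR1A siRNA library, against 111890 counts or 3082 CPM in the scrambled and 152274 counts or 3737 CPM in the untransfected library. This put it 1.17-fold above the scrambled library (1.16 to 1.18) and 1.04-fold below the untransfected library (1.03 to 1.05). DST (Gene 667, chr6:56457996-56954830) had 7734 counts or 227 CPM in the SPRR1A siRNA library, against 8172 counts or 225 CPM in the scrambled and 7597 counts or 186 CPM in the untransfected library. Its ratio to the scrambled library was 1.01 (0.977 to 1.04), which includes no difference, and its ratio to the untransfected library was 1.22 (1.18 to 1.26). Both genes make several proteins, and counts per gene do not separate them.

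The deposited values hold a trace of which DST product was present. Counts divided by FPKM (fragments scaled by transcript length and library total) and by the library total give the mean transcript length that the authors' quantification implies, and over 410 genes with a single annotated transcript this came out at 1.07 times the annotated length with the SPRR1A siRNA, 1.09 with the scrambled siRNA and 1.07 without transfection (medians). After division by these factors, DST had a mean length of 18843 bases with the SPRR1A siRNA, 17729 with the scrambled siRNA and 18350 without transfection. The hemidesmosomal BPAG1e transcript (DST-205 in GENCODE 29, RefSeq NM_001723) is 8999 bases long, and longer annotated transcripts run from 16742 (DST-201) over 18030 (DST-207) to 22431 bases (DST-204). The implied mean lay near the long transcripts in each library. A mean cannot tell a single form from a mixture of the longest form with a shorter one, so the BPAG1e share was not measured.

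**Figure D3:**
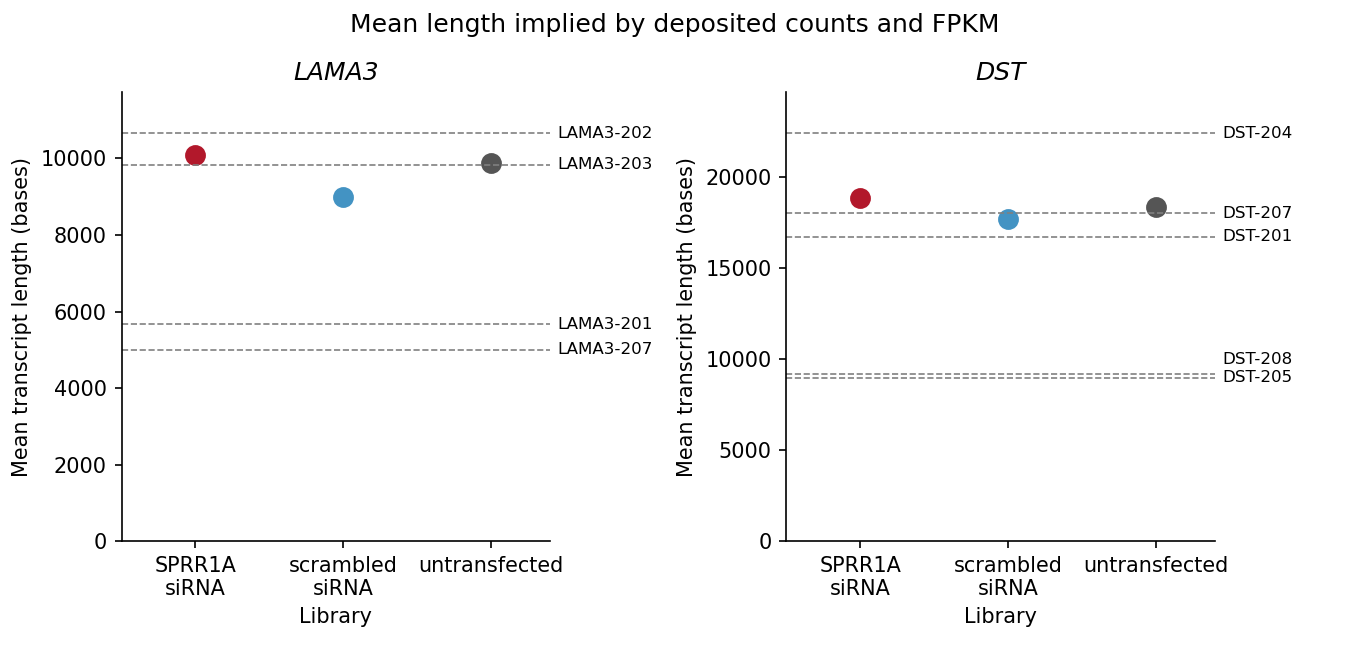
Mean transcript length in bases implied by the deposited counts and FPKM for LAMA3 and DST in each library (points), beside the lengths of annotated transcripts (dashed lines). LAMA3 lies at 8999 to 10080 bases and DST at 17729 to 18843 bases, above the short transcripts LAMA3-201 and LAMA3-207 and DST-205 and DST-208.

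Both laminin-332 chains among the members, α3 and β3, were lower with the SPRR1A siRNA. LAMA3 (Gene 3909, chr18:23689453-23955066) had 585 counts or 17.2 CPM in the SPRR1A siRNA library, against 1352 counts or 37.2 CPM in the scrambled and 1340 counts or 32.9 CPM in the untransfected library. It lay 2.17-fold below the scrambled library (1.97 to 2.39) and 1.92-fold below the untransfected library (1.74 to 2.11). LAMB3 (Gene 3914, chr1:209614870-209652425) had 904 counts or 26.5 CPM in the SPRR1A siRNA library, against 1833 counts or 50.5 CPM in the scrambled and 2369 counts or 58.1 CPM in the untransfected library, 1.90-fold (1.76 to 2.06) and 2.19-fold lower (2.03 to 2.37). For both genes the SPRR1A siRNA library was the low one and the controls lay within 1.15-fold of each other.

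Per length, LAMB3 transcripts were 3.64-fold as abundant as LAMA3 transcripts with the SPRR1A siRNA, 2.93-fold with the scrambled siRNA and 4.14-fold without transfection. The β3 chain was thus the more abundant of the pair in each library.

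LAMA3 makes a short α3A transcript, the usual chain of laminin-332, and a long α3B transcript from a start far upstream. The implied mean length of LAMA3 was 10080 bases with the SPRR1A siRNA, 8999 with the scrambled siRNA and 9876 without transfection. The long transcripts measure 10661 (LAMA3-202) and 9834 bases (LAMA3-203), and the short ones 5671 (LAMA3-201) and 5007 bases (LAMA3-207). All 3 means lay nearer the long forms, and the scrambled library had the smallest. The LAMA3 promoter window shown earlier belongs to the short forms, and the reads from each start were not separated.

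**Figure D4:**
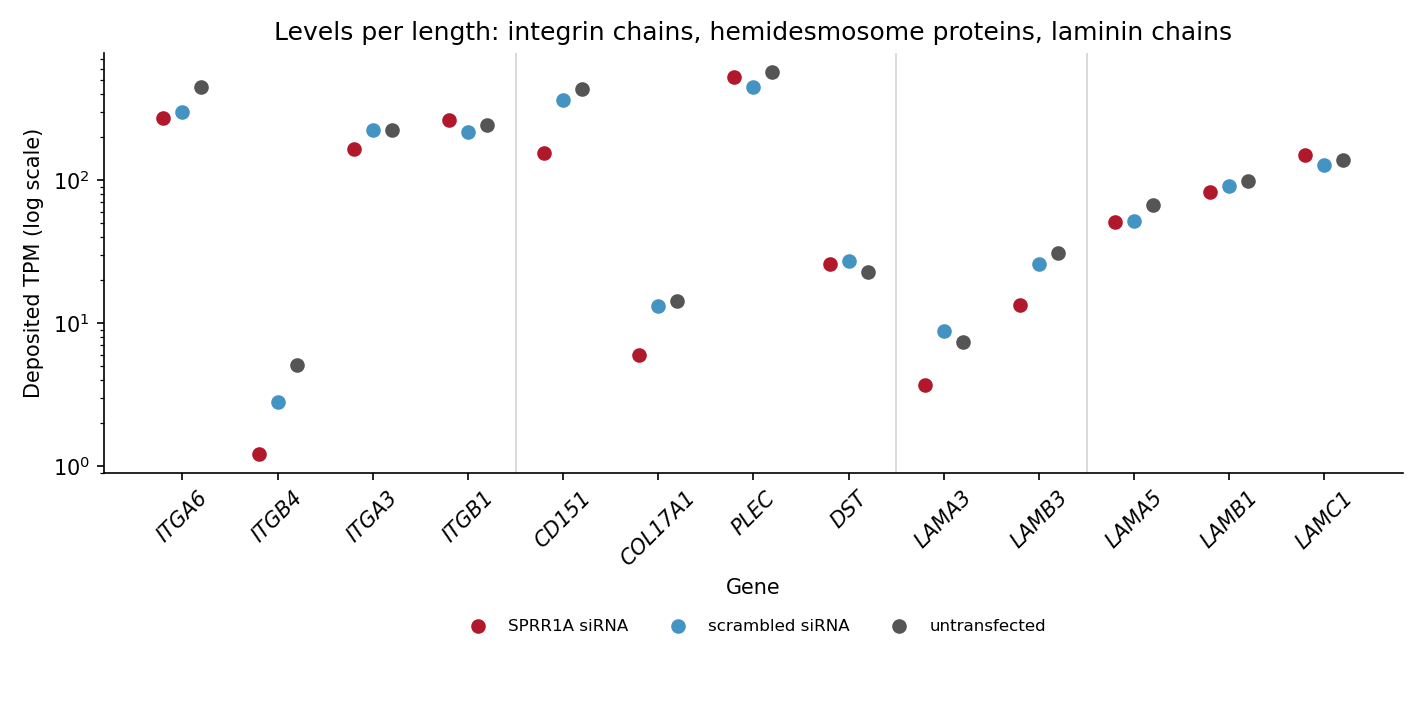
Deposited TPM on a log axis of the integrin chains, the other hemidesmosome genes, the laminin-332 chains LAMA3 and LAMB3 and the widely used laminin chains LAMA5, LAMB1 and LAMC1 in the SPRR1A siRNA (red), scrambled siRNA (blue) and untransfected (grey) libraries. ITGB4 is the lowest gene in the SPRR1A siRNA library at 1.22 TPM, far below ITGA6 at 270 TPM.

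COL17A1 was the member nearest in pattern to both laminin chains and to CD151. Over the 3 libraries, with log2 CPM centred on each gene's mean, the smallest distances between members were 0.155 for COL17A1 and LAMB3, 0.157 for COL17A1 and CD151 and 0.219 for COL17A1 and LAMA3, and the largest was 1.54 for ITGB4 and DST. CPM ran upward from the SPRR1A siRNA over the scrambled to the untransfected library in 5 of 8 members, ITGA6, ITGB4, LAMB3, COL17A1 and CD151, and in 19.3% of kept genes. Among 9647 other genes of at least 10 CPM on average, the nearest in pattern were KIAA1522 to ITGB4 (distance 0.02), EML1 to COL17A1 (0.03), USB1 to CD151 (0.02), SLC25A44 to LAMA3, ISG20 to LAMB3 and PXK to ITGA6 (0.01 to 0.02), and C1orf174 to DST (under 0.01). With 3 libraries such nearness is common, since 29 genes lay within 0.25 of ITGB4, 120 of CD151, 214 of COL17A1 and 3042 of DST.

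Of 14 kept genes that act with hemidesmosomes inside the cell or regulate them, 2 were called lower and 0 higher than in the scrambled library, with a median log2 ratio of -0.34. FERMT1, which encodes the epithelial integrin activator kindlin-1, had 199 counts with the SPRR1A siRNA, 719 with the scrambled siRNA and 1528 without transfection. It was 3.39-fold lower than with the scrambled siRNA (2.89 to 3.99) and 6.42-fold lower than without transfection (5.54 to 7.48), with the libraries in the same order as for ITGB4. TP63, the basal epithelial transcription factor, was 3.36-fold below the scrambled library (2.12 to 5.53) at 24, 86 and 65 counts in the SPRR1A siRNA, scrambled and untransfected libraries, and missed the rule on the log2(TPM + 1) scale (-0.61). The keratins of basal cells, which hemidesmosomes anchor, were not called against the scrambled library and were lower than in the untransfected library. KRT14 had 1934 TPM with the SPRR1A siRNA, 1439 with the scrambled siRNA and 3739 without transfection, with log2 ratios of 0.41 against the scrambled library and -0.90 against the untransfected library. Its partner KRT5 had 97, 52 and 227 counts in the same order, at 0.96 and -0.96. KRT15, named after its values were seen, had 746, 788 and 2590 counts, at 0.01 and -1.54, and was called lower than in the untransfected library. EGFR, whose signalling is known to take hemidesmosomes apart, had a log2 ratio of 0.05 to the scrambled library.

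Outside the cell, 0 of 9 kept other laminin chains were called in either direction against the scrambled library, with a median log2 ratio of -0.03. LAMC3, named after its values were seen, came closest at 0.997 on the log2 scale and met the rule with DESeq2 size factors or a prior count of 0.5. Its counts were 356 with the SPRR1A siRNA, 189 with the scrambled siRNA and 426 without transfection. The scrambled library was thus the low one, 2.01-fold below the untransfected library, to which the SPRR1A siRNA library had a ratio of 0.999. Of 10 kept basement membrane zone partners 1 was called lower and 1 higher. COL4A6, an α chain of collagen IV, was 5.51-fold below the scrambled library (4.14 to 7.46) and 3.03-fold below the untransfected library (2.24 to 4.15). On the log2(TPM + 1) scale it missed the rule against the untransfected library (-0.82). NID1, the linker nidogen-1, had 1203 counts with the SPRR1A siRNA, 570 with the scrambled siRNA and 2764 without transfection, so that it was called higher against the scrambled library and had a log2 ratio of -0.94 to the untransfected one. COL7A1, the anchoring fibril collagen, had a log2 ratio of 0.17 to the scrambled library. Among 8 kept proteases that process laminin-332 or shed COL17A1, 2 were called lower, namely the gelatinase MMP2 (2.30-fold, 2.12 to 2.48) and the urokinase PLAU (2.13-fold, 2.02 to 2.25), and 0 higher.

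Among other adhesion genes, 0 of 9 kept laminin and basement membrane receptors were called against the scrambled library. ITGA3, the α3 chain of the other laminin-332 receptor, had a log2 ratio of -0.46, and ITGB1 had 0.27. None of 4 other kept plakins was called (0 in each direction), and DSP, desmoplakin, had a log2 ratio of 0.70 at 186, 121 and 336 counts in the SPRR1A siRNA, scrambled and untransfected libraries. Of 5 kept desmosome genes 1 was called lower, PERP, at 3.74-fold (3.62 to 3.87). Focal adhesion genes had 2 lower and 1 higher of 12, with a median log2 ratio of -0.25. The fibronectin receptor chain ITGA5 was 2.97-fold lower (2.88 to 3.06) and the focal adhesion kinase PTK2 was 2.11-fold lower (2.04 to 2.19, with -0.97 on the log2(TPM + 1) scale). For NID1 and TLN1 it was the scrambled library that stood lowest, 4.32-fold and 2.86-fold below the untransfected library in that order. TLN1, the integrin activator talin-1, was 2.84-fold above the scrambled library (2.78 to 2.90) and level with the untransfected library at a ratio of 0.994 (0.979 to 1.01).

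**Figure D5:**
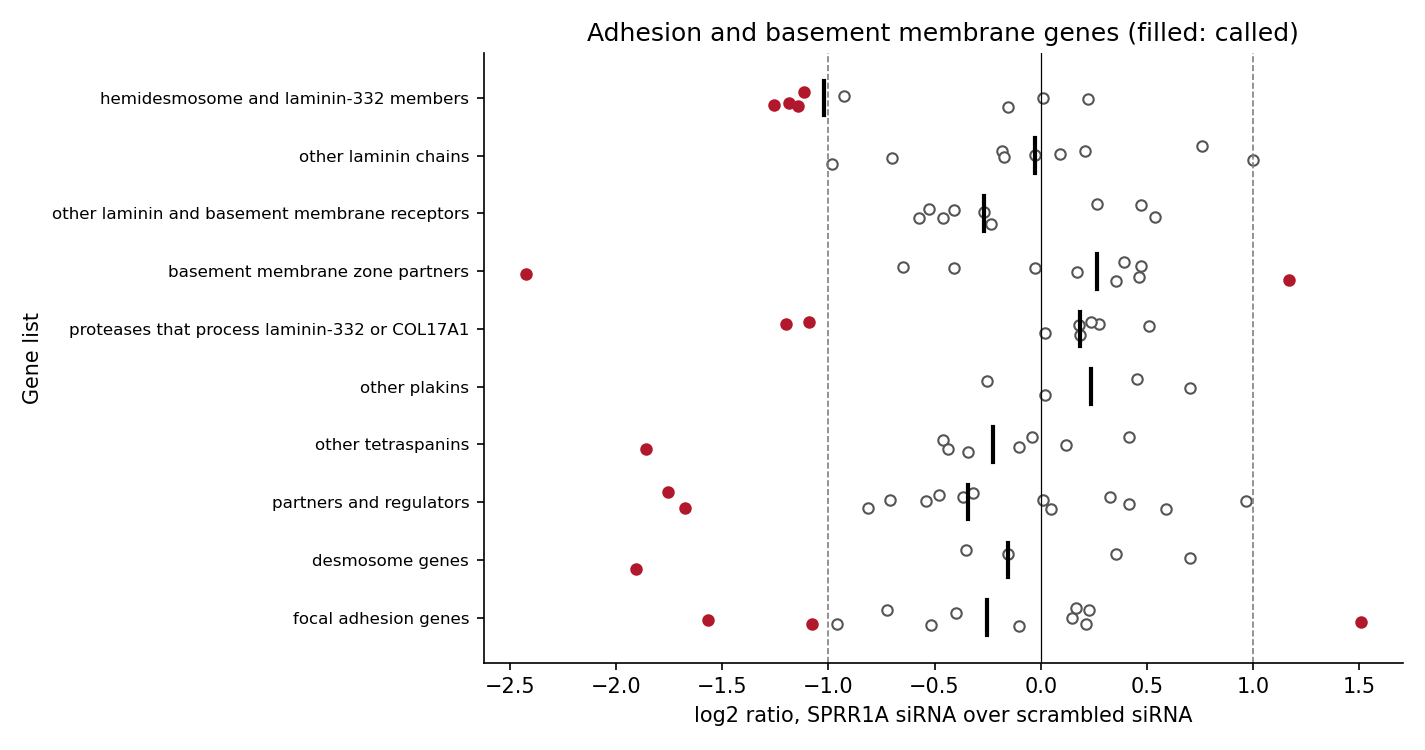
Log2 ratio of each kept gene in the SPRR1A siRNA over the scrambled library, by gene list. Filled points were called, open points were not, black bars are list medians and dashed lines mark a 2-fold difference. The members' median lies at -1.02, and the medians of the other lists drawn, which leave out the cell type markers, lie between -0.34 and 0.26. Among the marker lists not drawn, the mesenchymal median was -0.98, the osteoblast median -1.35 (2 kept genes) and the basal keratinocyte median -0.02.

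Some cell type markers also differed between the libraries, and their part in the members' differences was not tested. Of the mesenchymal markers VIM, vimentin, had 1436 TPM with the SPRR1A siRNA, 3523 with the scrambled siRNA and 3510 without transfection. PDGFRB, from the same list, had 2.23, 6.08 and 8.94 TPM in that order. The basal keratin KRT14 had 1934, 1439 and 3739 TPM, so VIM alone does not bear out the mesenchymal label. Mesenchymal markers had 3 of 7 called lower than in the scrambled library (VIM 2.56-fold, COL3A1 2.67-fold, PDGFRB 2.71-fold) and 5 of 7 lower than in the untransfected library, with medians of -0.98 and -1.30 on the log2 scale and a summed level of 1680 TPM with the SPRR1A siRNA, 3908 with the scrambled siRNA and 4051 without transfection. That sum was mostly VIM. In both comparisons 6 of the 7 lay below 0, and CDH2 lay above it, at 0.47 against the scrambled and 0.31 against the untransfected library. Basal keratinocyte markers had 2 of 6 kept genes called lower against the scrambled siRNA, namely TP63 and SFN (2.32-fold), with a median log2 ratio of -0.02. Against the untransfected library 3 of 6 were called lower with the SPRR1A siRNA (median -1.04) and 3 of 6 with the scrambled siRNA (median -1.05). The list had a summed level of 2069, 1597 and 4027 TPM in that order, mostly KRT14. The list of simple epithelial markers had 0 of 3 kept genes called against the scrambled library, at 404, 442 and 513 TPM in sum, with EPCAM and CDH1 at 14 counts or fewer in each library. The osteoblast markers SP7 and IBSP were at 0 counts in all 3 libraries, and 2 genes of that list were kept. SPP1 had 6 counts with the SPRR1A siRNA, 86 with the scrambled siRNA and 28 without transfection. It was called lower than in the scrambled library, 13.5-fold (5.93 to 37.7), and the untransfected library, 3.90-fold (1.59 to 11.5). SPP1 was kept only through the scrambled library, so its call against that library depends on the filter. Against the untransfected library it missed the rule on the log2(TPM + 1) scale (-0.68). The scrambled library was itself 3.45-fold above the untransfected library. RUNX2 had 571, 374 and 865 counts in that order and a log2 ratio of 0.70 to the scrambled library, without a call. Endothelial and blood markers summed to 1.55 TPM with the SPRR1A siRNA, 1.92 with the scrambled siRNA and 2.58 without transfection, with CDH5 and HBB at 0 counts in all. Schwann cell markers, whose cells also use α6β4, summed to 0.256, 0.862 and 0.877 TPM, with SOX10 and S100B at 0 counts.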

How the data were processed

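MG-OKS libraries were compared as SPRR1A siRNA, scrambled siRNA and untransfected, taken from genotype labels and the sample title. The authors deposited whole-number read counts per gene with FPKM and TPM values. Reads were aligned with HISAT2 2.1.0 to GRCh38, per the submitters' processing notes. Counting tool, annotation and strand setting are not given in the sources used here. Coordinates are RefSeq's for GRCh38.p14.

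Genes reaching 1 CPM by unscaled library totals in at least 1 library were kept. Library sizes were scaled by TMM factors (0.98898 with the SPRR1A siRNA, 0.99371 with the scrambled siRNA and 1.0175 without transfection; edgeR 4.0.16, R 4.3.3). Log2 ratios used a prior count of 2. Fold values are ratios of CPM without a prior count. Levels carry exact Poisson and ratios exact conditional binomial 95% intervals (scipy 1.17.1), for counting error alone. No p-value was computed, as groups held 1 library each. The rule was tested on simulated data with Poisson counting noise only, which cannot show how often it calls unchanged genes between separate cultures. Size factors from DESeq2 1.42.0, unscaled totals, other filters, log2(TPM + 1), a prior count of 0.5 and a 1.5-fold threshold were tried as alternatives. Named genes were the members, a fixed set of partners and the genes called against the scrambled library, at most 4 from each list. Some genes named by this rule are not reported here. Members and lists were chosen with earlier results of these data known.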

Additional observations from a re-analysis of the deposited data

How the results depend on the processing

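Members' calls depended little on the processing. With DESeq2 size factors, unscaled totals, no filter, a filter of 5 CPM and a prior count of 0.5, each of the 8 members kept its direction and its side of the 2-fold rule in all 3 comparisons. With log2(TPM + 1), ITGB4 no longer met the rule against the scrambled library (-0.77), 3 members were called there, DST turned from 0.01 to -0.06 without being called in either, and the members' median was -0.84. With 1.22 TPM in the SPRR1A siRNA library, ITGB4 is where that pseudocount weighs most among the members. TP63 (-0.61) and PTK2 (-0.97) also missed the rule on that scale against the scrambled library. Against the untransfected library COL4A6 (-0.82), SPP1 (-0.68) and TP63 (-0.38) missed it. With a 1.5-fold threshold 5, 6 and 1 members were called lower in the SPRR1A siRNA over scrambled, SPRR1A siRNA over untransfected and scrambled over untransfected comparisons, in place of 4, 4 and 0.

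Counts over all genes moved more. In the same order of comparisons the rule called 1561, 1524 and 706 genes, against 3146, 3043 and 2195 with no filter, 878, 825 and 315 with a filter of 5 CPM, 812, 840 and 298 with log2(TPM + 1), and 3863, 3838 and 2105 with a 1.5-fold threshold. No paired analysis was possible because each group held 1 library. Leaving out a library was not possible for the same reason, so counting depth is the only error measured, and among the members its relative size is widest for ITGB4.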
